A study of Sciaenops ocellatus with 36 samples.

Results

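Embryos of red drum (Sciaenops ocellatus, a marine sport fish of the Gulf of Mexico) were compared at 24 hours post fertilisation (hpf) for how differently their genes responded to 2 oils from the Deepwater Horizon spill. The quantity described here is, for each gene, the log2 fold change of slick oil over its own controls minus the log2 fold change of source oil over its own controls. A positive difference therefore means that the response was higher with slick oil, and a negative difference that it was lower. Genes were matched between the 2 deposited 24 hpf tables by their symbol, and the genes were selected on measured control levels: a gene was kept where its mean level in the 2 control groups, as read counts scaled to the library total (CPM), lay within a factor of 2. The reason for the condition is that reads were assigned to genes differently in the 2 tables. Of 56338 distinct symbols, 7879 met this condition, 8393 had enough counts to be tested in both tables, and 7056 did both; these 7056 genes are called the matched genes. The remaining 1337 tested symbols had control levels further apart.

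The source oil was MASS, a non-weathered surrogate of the oil at the well, given at 0.27%, and its group held 3 libraries beside 3 control libraries of the same series. The slick oil was OFS, naturally weathered and collected from a surface slick in the Gulf, given at 2.50%, and its group held 3 libraries beside 2 control libraries (replicates 2 and 3) of its own series. Control embryos had no oil. Embryos in every group came from brood stock tanks, had been treated with formalin against bacteria, and were pooled 30 to a library. Oil type, dilution and series change together, so they cannot be told apart in any difference below. The labels do not say whether pools of a group came from separate spawns or tanks, and p-values therefore measure only the spread between these libraries.

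Crude oil carries polycyclic aromatic hydrocarbons, several of which bind the aryl hydrocarbon receptor (AHR) and switch on cytochrome P450 genes of the CYP1 family. Weathering removes the smaller and more volatile compounds and leaves a mixture enriched in larger ones. In fish embryos, oil is known for its effects on the heart and eye and on lipid metabolism. The lens is built from fibre cells packed with crystallins, and the embryonic liver begins to secrete complement and clotting proteins. Whether RNA of these genes tracked those small organs in the whole embryos used here was not tested. In whole embryos, fewer cells of a type and less RNA per cell cannot be told apart.

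Library totals at 24 hpf ranged from 4770544 to 5878886 counts in the source series and from 2806988 to 3280328 in the slick series, and matched genes held 81.0% to 83.1% of them. The header names of slick oil libraries differ in form from those of every other library, and no source says whether they were sequenced beside the controls so a sequencing run, if there was one, and slick oil cannot be told apart. The exposure marker CYP1A1, an AHR target that oxidises aromatic hydrocarbons, was not a matched gene because its control level was 133 CPM in the source series and 298 CPM in the slick series. It rose in both, to between 1995 and 2356 CPM with source oil and between 3461 and 3891 CPM with slick oil. The log2 changes were 4.01 and 3.63, and their difference of -0.38 did not pass (95% interval -0.75 to -0.01, adjusted p = 0.628).

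Most matched genes did not pass the test of the difference between oils. The response differed for 14 of 7056 matched genes, which is 0.198%, against 18 of 8393 (0.214%) when genes were kept whatever their control level (edgeR quasi-likelihood test of the interaction, two-sided, Benjamini-Hochberg adjusted over 8393 genes, threshold 0.05). The response was higher with slick oil for 6 genes (0.085%) and lower for 8 (0.113%). At an unadjusted p under 0.05 there were 522 genes (7.4%), 268 of them higher and 254 lower with slick oil. The median difference over the matched genes was -0.01, with a median standard error of 0.21 (log2) and a median half-width of the 95% interval of 0.42. That half-width belongs to a test without adjustment, and passing took more. The largest unadjusted p among the 14 genes that passed was 0.000101 by the same test, and their smallest difference was 0.57. That smallest difference belonged to STAT3, whose standard error of 0.11 was below the median of 0.21. A typical gene therefore needed a difference well above 0.42 to pass at this depth and number of libraries. Control levels, which chose the matched genes and enter both responses, had a Pearson correlation of 0.97 on the log2 scale across them, as the rule imposes.

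**Figure D1:**
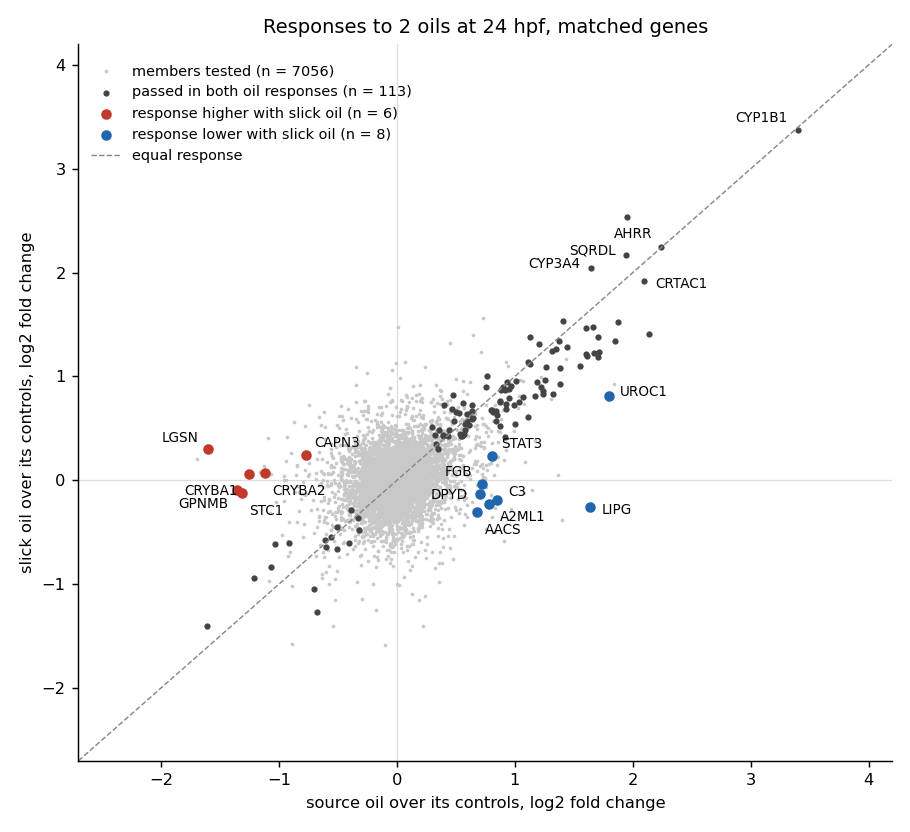
Log2 fold change of source oil over its 3 controls (x axis) against slick oil over its 2 controls (y axis) for the 7056 matched genes at 24 hpf; the dashed line marks equal responses. The 113 genes that passed in both responses lie in the upper right and lower left, while the 6 genes higher with slick oil and the 8 lower with it have large source responses and slick responses nearer to 0.

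The count rests on few libraries. Without control replicate 2 of the slick series only CAPN3 passed, and without control replicate 3 only LIPG did; the control library left in each refit was assumed to vary like the other groups. The count was 6 without source control 1, 4 without source control 2, 4 without source oil 2, 8 without slick oil 1 and 6 without slick oil 2, and it rose to 25 without source control 3 and 45 without source oil 1. DESeq2 called 8 genes, all among the 14, and not CRYBA1, CRYBA2, STC1, C3, A2ML1 or AACS. The sign of the difference was the same for all 14 genes in each of these refits. The genes were chosen by this same contrast in these libraries, so a kept sign was likely beforehand and is not separate evidence.

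Each response on its own was shared in part. With source oil, 531 of 9790 symbols tested in that table passed (5.42%); with slick oil, 196 of 8959 did (2.19%). Among matched genes, 280 rose and 106 fell with source oil, and 112 rose and 36 fell with slick oil. Genes that passed in both numbered 113, which is 29.3% of those that passed with source oil and 76.4% of those that passed with slick oil, and each of the 113 moved in the same direction with both (97 rose, 16 fell). The slick series had fewer and shallower libraries, and its count fell to 46 or 71 when either control library (2 or 3) was dropped, fell to 76 on dropping oil library 1, and rose to 396 on dropping oil library 3. DESeq2 called 82. Dropping source oil library 2 gave 243 for source oil. The 2 responses share no library, and their Pearson correlation across the 7056 matched genes, which are not independent replicates, was 0.42.

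Genes that rose with source oil mostly leaned the same way with slick oil. Of the 280, 250 had a positive slick response, with a median of 0.64 (log2) for source oil and 0.39 for slick oil. Of the genes that fell with source oil, 77 of 106 had a negative slick response, with medians of -0.61 and -0.14. In the other direction, 111 of the 112 genes that rose with slick oil had a positive source response, and 34 of the 36 that fell had a negative one. Of the 273 genes that passed with source oil alone, 13 passed the test of the difference, and of the 35 that passed with slick oil alone none did (0 by edgeR, 11 at an unadjusted p under 0.05, and 0 of the 8 called by DESeq2). Passing in a single series is therefore not shown to be a difference for the rest.

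The AHR targets CYP1B1 and AHRR rose with both oils, and neither passed the test of the difference. CYP1B1, a P450 that oxidises aromatic hydrocarbons and steroids, was measured at 0.986, 1.63 and 1.17 CPM in source controls and at 12.2, 12.1 and 16.5 CPM with source oil. In the slick series it was 1.07 and 1.64 CPM in controls and 15.6, 14.4 and 13.7 CPM with oil. Oil and control libraries did not overlap in either series. The log2 changes were 3.40 ± 0.34 (SE) and 3.38 ± 0.51, and the 95% interval of their difference ran from -1.24 to 1.22, which is wide because control counts were low.

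AHRR, the repressor that AHR induces against itself, was at 8.71, 5.06 and 6.46 CPM in source controls and 27.1, 33.1 and 36.9 CPM with source oil. It was at 11.1 and 12.4 CPM in slick controls and 60.9, 50.7 and 56.0 CPM with slick oil. Each oil library again stood above every control of its series. Both log2 changes rounded to 2.24, and the interval of the difference was -0.58 to 0.58.

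CYP3A4, a P450 with broad drug and steroid substrates, rose by 1.64 ± 0.14 with source oil and by 2.04 ± 0.25 with slick oil (log2; difference 0.40, interval -0.23 to 1.02). NQO1, a quinone reductase regulated through AHR and NRF2 in mammals, was near the lower limit of measurement, at 1.81 to 5.93 CPM over the source series and 1.96 to 4.90 CPM over the slick series. Its groups overlapped in both series, and it passed in neither response. The log2 changes were 0.83 with source oil and -0.50 with slick oil. Their difference of -1.33 did not pass, although its 95% interval excluded 0 (-2.51 to -0.16, adjusted p = 0.569). TIPARP, another AHR target, had a mean of 40.4 CPM in source controls and 0 in slick controls, so the 2 tables could not be compared for it. Over the AHR list, 14 matched genes had a median difference of -0.003 with 0 called by edgeR or DESeq2 (2 at an unadjusted p under 0.05), and 5 rose with source oil and 3 with slick oil.

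Of the 22 matched antioxidant genes, 14 rose with source oil and 11 with slick oil (12 and 8 by DESeq2). PRDX1, a peroxidase of the thioredoxin system, stood at 334, 370 and 357 CPM in source controls and 723, 708 and 699 CPM with source oil. It stood at 419 and 429 CPM in slick controls and 830, 873 and 763 CPM with slick oil. Groups did not overlap in either series. The log2 changes were 1.01 and 0.96, with an interval of -0.27 to 0.16 for the difference. SQSTM1, an autophagy receptor that also feeds NRF2 signalling, rose by 1.61 and 1.47 (interval of the difference -0.64 to 0.37). On the antioxidant list no gene passed as lower with either oil, and 0 passed the test of the difference by edgeR or DESeq2 (1 at an unadjusted p under 0.05). The median changes were 0.44 and 0.45.

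Several enzymes of mitochondria among the genes set for reporting rose with both oils. Of the 24 matched genes of the respiratory chain and ATP synthase list, 6 rose with source oil and 3 with slick oil. The median changes of that list were 0.12 and 0.06. Of 5 matched genes of sulfide oxidation and transsulfuration, 2 rose with source oil and 1 with slick oil. SQRDL, which oxidises hydrogen sulfide in mitochondria, was at 23.5, 21.5 and 21.1 CPM in source controls and 105, 73.9 and 75.6 CPM with source oil, and at 14.0 and 12.1 CPM in slick controls and 61.8, 59.2 and 54.8 CPM with slick oil. Oil libraries were above controls in both series, and the log2 changes were 1.94 and 2.17. SDHB, the iron-sulfur subunit of succinate dehydrogenase, rose by 1.71 ± 0.08 and 1.23 ± 0.10, and SDHA, its flavoprotein subunit, by 1.39 and 1.08. FECH, which inserts iron into heme, rose by 1.67 and 1.23, and GCDH, an enzyme of lysine and tryptophan breakdown, by 1.85 and 1.34. For GCDH, SDHB and FECH the 95% interval of the difference excluded 0 (GCDH -0.82 to -0.21, SDHB -0.79 to -0.16, FECH -0.89 to -0.01), but none passed after adjustment (adjusted p 0.279, 0.386 and 0.637). Outside mitochondria, CRTAC1, a secreted matrix protein first described in cartilage, rose by 2.10 and 1.92.

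**Figure D2:**
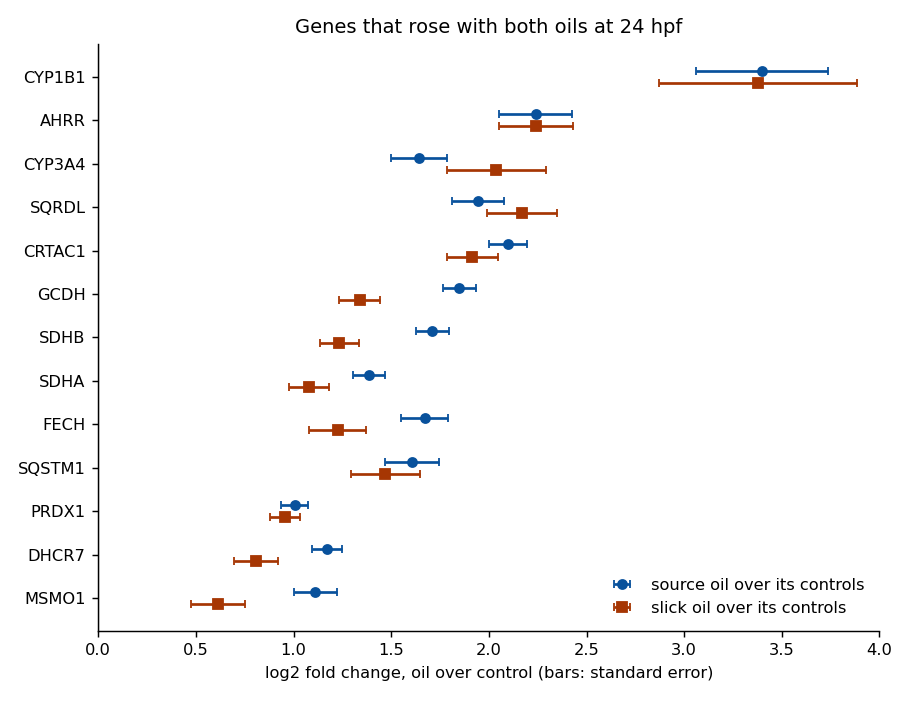
Log2 fold change over the controls of the same series (x axis) for 13 named genes (rows) that rose with both oils at 24 hpf; circles are source oil, squares slick oil, and bars are standard errors. CYP1B1 and AHRR lie at the same place for both oils, whereas GCDH, SDHB, FECH, DHCR7 and MSMO1 lie further right for source oil without passing the test of the difference.

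Over the 97 genes that rose with both oils the source change was the larger for 68, with medians of 0.92 and 0.80. The difference reached an unadjusted p under 0.05 for 14 of the 97, each lower with slick oil, and UROC1 alone passed after adjustment. Among the largest shared changes, picked after their values were seen, was BCO2, a mitochondrial carotenoid-cleaving enzyme, which rose from 2.17 to 2.79 CPM in source controls to between 9.23 and 10.2 CPM with source oil, and from 1.79 and 1.96 CPM in slick controls to between 9.24 and 14.7 CPM with slick oil. The iron-sulfur cluster genes ISCU, NFS1 and ISCA1, chosen the same way, rose by 1.66, 1.35 and 1.13 with source oil and by 1.47, 1.27 and 1.38 with slick oil. Over the 16 genes that fell with both, the medians were -0.61 and -0.61. They include ASTL, a protease of the astacin family, to which hatching enzymes of fish also belong, which fell by 1.22 and 0.94 (log2). At 24 hpf its control means were 79.1 and 129.5 CPM, and at 72 hpf under oil it stood at 2118 to 4195 CPM. Whether its RNA came from hatching glands was not tested. Of the 4 matched genes on the list of hatching-gland and astacin proteases, 1 passed as lower with each oil. The median changes of that list were -0.05 with source oil and 0.05 with slick oil.

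Lens genes had the largest median difference of the 33 lists: they fell with source oil, and with slick oil they had changes near 0. CRYBA1, a beta-crystallin of the lens fibre, was at 594, 552 and 427 CPM in source controls and at 306, 233 and 117 CPM with source oil. In the slick series it was at 615 and 532 CPM in controls and at 591, 610 and 597 CPM with oil. Source oil libraries lay below every source control, whereas slick oil and control libraries overlapped. The difference was 1.32 ± 0.27 (SE; interval 0.77 to 1.87; adjusted p = 0.035). DESeq2 did not call it (adjusted p = 0.704), nor its fall with source oil (adjusted p = 0.0579).

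CRYBA2, a related beta-crystallin, was at 803, 775 and 558 CPM in source controls and at 462, 318 and 206 CPM with source oil, but at 974 and 883 CPM in slick controls and 949, 1030 and 936 CPM with slick oil. The groups separated in the source series alone (difference 1.18 ± 0.24, adjusted p = 0.0379; DESeq2 adjusted p = 0.69). LGSN, lengsin, a lens protein related to glutamine synthetase, was at 11.2, 12.8 and 9.78 CPM in source controls and 5.21, 3.06 and 2.64 CPM with source oil. It was at 10.4 and 8.83 CPM in slick controls and 8.92, 14.1 and 12.5 CPM with slick oil. Source groups did not overlap and slick groups did; the difference of 1.90 ± 0.37 (adjusted p = 0.0193) was the largest positive one among the 14, and DESeq2 called it too (adjusted p = 0.0132).

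On the lens list, which does not hold LGSN, 8 genes were matched: CRYBA1, CRYBA2, CRYBA4, CRYGB, CRYGN, MIP, LIM2 and GJA3. The difference was positive for 8 of 8, reached an unadjusted p under 0.05 for 7 and passed for 2 in edgeR and 0 in DESeq2, with a median of 1.15 against -0.01 over all matched genes. Those that missed the threshold by little were CRYBA4 (1.24, adjusted p = 0.0535), MIP, the water channel of the fibre cell (1.26, adjusted p = 0.0685), and CRYGB (1.13, adjusted p = 0.0768). With source oil 7 of the 8 passed as lower in edgeR and 0 in DESeq2, and the median change was -1.09. With slick oil 0 passed in either tool (0 at an unadjusted p under 0.05 in edgeR), and the median change was 0.07. GJA3, a lens gap junction gene, was the exception, at -0.15 with source oil and 0.06 with slick oil.

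The summed level of the 8 lens genes was 10440, 10190 and 7425 CPM in source controls and 6163, 4660 and 2667 CPM with source oil. It was 8884 and 8092 CPM in slick controls and 8597, 9480 and 8496 CPM with slick oil. Within the source series, control 3 was the lowest of the controls and oil 3 the lowest library. Without source oil 3 the median lens difference was 0.89, and without source oil 1 it was 1.46. CRYBB1 was left out by the matching rule, at 472 CPM in source controls and 1142 CPM in slick controls, and its difference was 1.35 (adjusted p = 0.0203). Of the 22 lens symbols listed, CRYAB, CRYGA, CRYGD, CRYGS, BFSP2 and LENEP had no count in any of the 11 libraries. Symbols are human names given to a fish transcriptome, and counts of near-identical crystallin copies may have been divided or merged between symbols.

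CAPN3, GPNMB and STC1 also fell with source oil and differed from slick oil. CAPN3, a calcium-dependent protease of muscle with lens forms known in rodents, was at 344, 294 and 253 CPM in source controls and 197, 179 and 146 CPM with source oil. It was at 381 and 305 CPM in slick controls and 403, 394 and 422 CPM with slick oil. Oil libraries lay below controls in the source series and above them in the slick series. The difference was 1.02 ± 0.16 (adjusted p = 0.00301), made of -0.77 and 0.25, and the slick change alone did not pass.

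GPNMB, a membrane glycoprotein of pigment cells and macrophages, was at 18.6, 15.9 and 16.8 CPM in source controls and 7.73, 6.51 and 5.71 CPM with source oil, and at 32.6 and 26.2 CPM in slick controls and 30.3, 28.2 and 24.1 CPM with slick oil. It separated in the source series and overlapped in the slick series (difference 1.26 ± 0.24, adjusted p = 0.0193). The control level of GPNMB was 0.58 times as high in the source series, close to the limit of the rule. Among the 14 genes, FGB (0.58), LIPG (0.59), STC1 (0.65) and A2ML1 (1.68) also had control levels well apart. None of these genes, GPNMB included, was kept when control levels had to lie within a factor of 1.5. STC1, stanniocalcin, a hormone that lowers calcium uptake in fish, was at 12.7, 17.2 and 14.5 CPM in source controls and 6.11, 5.94 and 5.71 CPM with source oil. It was at 22.9 and 22.2 CPM in slick controls and 20.4, 23.2 and 18.6 CPM with slick oil. The pattern was the same, with a difference of 1.18 ± 0.25 (adjusted p = 0.0379; DESeq2 adjusted p = 0.156). The 15 matched genes of the pigment cell list had a median difference of 0.04.

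Of 12 matched genes for liver plasma proteins, 7 rose with source oil (4 by DESeq2), and with slick oil none passed. C3, the central protein of complement, was at 147, 206 and 253 CPM in source controls and 294, 429 and 370 CPM with source oil. It was at 208 and 246 CPM in slick controls and 212, 186 and 200 CPM with slick oil. Source groups did not overlap, slick groups did, and the difference was -1.04 ± 0.21 (interval -1.47 to -0.62; adjusted p = 0.0286; DESeq2 adjusted p = 0.287). FGB, the beta chain of fibrinogen, was at 343, 402 and 469 CPM in source controls and 549, 734 and 715 CPM with source oil, but at 649 and 743 CPM in slick controls and 700, 677 and 666 CPM with slick oil. In CPM, source oil libraries 2 and 3 lay between the 2 slick controls, and library 1 lay below both. Reads were assigned to genes differently in the 2 tables, so that ranking does not compare expression between series. The FGB difference was -0.75 ± 0.15 (adjusted p = 0.0295).

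Of 12 matched genes on the list of complement, coagulation and liver plasma proteins, 2 passed the test of the difference, both lower with slick oil (1 by DESeq2, FGB), and 9 had an unadjusted p under 0.05 in that direction. The median difference was -0.68, and 11 of 12 were negative; AMBP was the exception (0.15). With source oil the median change was 0.59, and with slick oil 0 passed in edgeR or DESeq2 (2 at an unadjusted p under 0.05 in edgeR) and the median was -0.15. CFB, factor B of the alternative complement pathway, had a difference of -1.24 that did not pass (adjusted p = 0.132). The summed level of the 12 was 1253, 1499 and 1759 CPM in source controls, 1873, 2566 and 2431 CPM with source oil, 1705 and 1945 CPM in slick controls and 1695, 1680 and 1790 CPM with slick oil. Among source controls, replicate 3 was highest for these genes and lowest for the lens genes. C4A, SERPINA1, AHSG, TTR and HP had no count in any of the 11 libraries.

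STAT3 and A2ML1 showed the same direction outside that list. STAT3, the transcription factor that carries signals of the interleukin-6 family, was at 193, 215 and 222 CPM in source controls and 355, 376 and 373 CPM with source oil. It was at 305 and 291 CPM in slick controls and 356, 381 and 317 CPM with slick oil. Oil libraries were above controls in both series, but the slick change alone did not pass. The changes of 0.81 and 0.24 differed by -0.57 ± 0.11 (adjusted p = 0.0286), the smallest difference that passed. A2ML1, a protease inhibitor of the alpha-2-macroglobulin family, was at 162, 195 and 250 CPM in source controls and 280, 398 and 363 CPM with source oil. It was at 113 and 128 CPM in slick controls and 114, 82.5 and 111 CPM with slick oil, so that the slick groups overlapped. The difference was -1.02 ± 0.21 (adjusted p = 0.0364; DESeq2 adjusted p = 0.303). The 8 matched genes of the inflammation list had a median difference of -0.13, and 1, STAT3, passed.

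**Figure D3:**
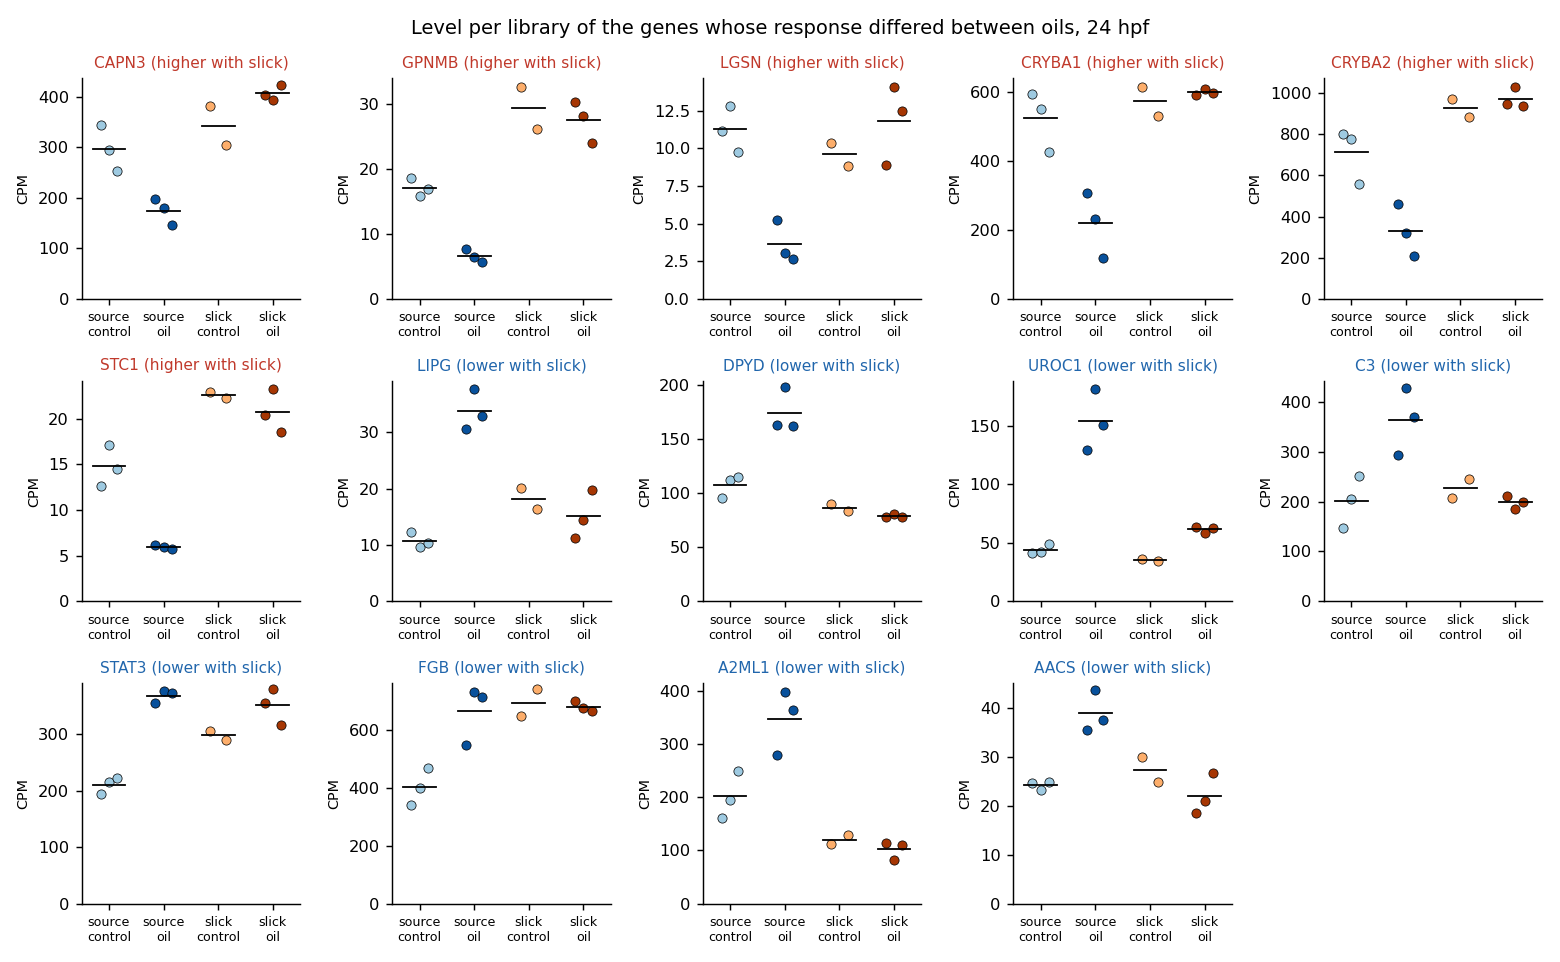
Level in CPM (y axis, from 0) in each of the 11 libraries at 24 hpf for the 14 genes whose response differed between oils; points are libraries and lines group means. The source oil libraries stand apart from their controls in 14 of 14 panels, while the slick oil libraries overlap their controls in 10.

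Genes of lipid, pyrimidine and histidine metabolism were the rest of those lower with slick oil. LIPG, endothelial lipase, which hydrolyses lipoprotein phospholipids, was at 12.3, 9.57 and 10.4 CPM in source controls and 30.6, 37.7 and 33.0 CPM with source oil. It was at 20.1 and 16.4 CPM in slick controls and 11.2, 14.4 and 19.8 CPM with slick oil. Source groups were far apart and slick groups overlapped, with a difference of -1.90 ± 0.27 (interval -2.46 to -1.34; adjusted p = 0.00149), the smallest p of the comparison. AACS, which turns the ketone body acetoacetate into a substrate for lipid synthesis, was at 24.7, 23.3 and 24.9 CPM in source controls and 35.6, 43.8 and 37.6 CPM with source oil. It was at 30.1 and 24.9 CPM in slick controls and 18.5, 21.0 and 26.8 CPM with slick oil. These slick groups overlapped, and the difference of -0.99 ± 0.21 was the nearest to the threshold (adjusted p = 0.0472; DESeq2 adjusted p = 0.0668).

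DPYD, the rate-limiting enzyme of uracil and thymine breakdown, was at 95.2, 112 and 115 CPM in source controls and 163, 198 and 162 CPM with source oil. It was at 89.9 and 83.4 CPM in slick controls and 78.1, 81.2 and 77.9 CPM with slick oil. Oil libraries lay above controls in the source series and below them in the slick series. The difference was -0.84 ± 0.14 (adjusted p = 0.0107), made of 0.70 and -0.13, and the slick change alone did not pass. UROC1, urocanate hydratase of histidine breakdown, was the single gene of the 14 that passed in both responses. It was at 41.4, 42.4 and 48.7 CPM in source controls and 130, 181 and 150 CPM with source oil, and at 35.8 and 34.3 CPM in slick controls and 63.1, 58.3 and 62.7 CPM with slick oil. It rose with both, by 1.80 and 0.81, and the difference was -0.99 ± 0.19 (adjusted p = 0.0193).

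Seen together, 14 of the 14 genes had source groups that did not overlap and 4 had slick groups that did not, against 20.8% and 27.5% of all matched genes. For 10 of them the responses had opposite signs. Each of the 14 passed with source oil, and UROC1 alone passed with slick oil. The 14 genes were chosen by the test of the difference in these same libraries. These counts therefore describe the genes and are not separate evidence for a difference.

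Sterol genes leaned towards source oil. None of the 21 matched genes of cholesterol synthesis and sterol sensing passed the test of the difference (0 by edgeR; 8 at an unadjusted p under 0.05, each lower with slick oil; 0 by DESeq2). Their median difference was -0.36, with 10 rising with source oil and 2 with slick oil. MSMO1, a sterol demethylation enzyme, was at 40.4, 31.8 and 31.5 CPM in source controls and 68.6, 81.9 and 74.7 CPM with source oil, and at 38.7 and 50.4 CPM in slick controls and 66.6, 78.2 and 60.3 CPM with slick oil. Both series separated, the changes were 1.11 and 0.61, and the interval of the difference was -0.89 to -0.11. INSIG1, the sterol sensor that holds back this pathway, rose by 0.73 with source oil; its slick change was 0.12 with overlapping groups. DHCR7, which makes cholesterol from its immediate precursor, rose by 1.17 and 0.81.

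The list of amino acid catabolism leaned the same way, with a median difference of -0.27 over 26 genes, 21 of them negative; 14 rose with source oil and 5 with slick oil. No gene of this list, of the phototransduction list or of the cell cycle list passed the test of the difference (0 by edgeR and 0 by DESeq2; 7, 4 and 6 at an unadjusted p under 0.05). The synaptic list leaned the other way, with 21 of 22 genes positive and a median difference of 0.24, and no gene of it passed in either response or in the difference (0 by edgeR and 0 by DESeq2; for the difference 4 at an unadjusted p under 0.05, led by the glutamate receptor genes GRIA3 and GRIA1). Phototransduction and visual cycle genes had a median difference of 0.46 over 12 genes; RPE65, the isomerase of the visual cycle, fell by 0.83 with source oil and was at -0.29 with slick oil, and the difference of 0.53 did not pass (adjusted p = 0.543). For cell cycle genes, 24 of 25 were negative with a median of -0.25, made of -0.06 with source oil and -0.33 with slick oil. Without slick oil replicate 2 that median was -0.15. Over all matched genes, 3429 differences were positive and 3627 negative. Lists with small medians were one-sided as well. Proteasome genes were negative in 20 of 20 (median -0.11), and cytosolic ribosomal protein genes in 32 of 35 (median -0.05). Genes of a list may vary together, so these counts of signs are not counts of separate observations.

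Collagen chains had close median changes with both oils. Of 22 matched chains 6 fell with source oil and 12 with slick oil, the medians were -0.28 and -0.30, and the median difference was -0.04 with 0 called by either tool (4 at an unadjusted p under 0.05). COL5A2, a fibrillar collagen chain, was at 553, 464 and 568 CPM in source controls and 448, 459 and 526 CPM with source oil. It was at 1032 and 984 CPM in slick controls and 779, 738 and 809 CPM with slick oil, so that it overlapped in the source series and separated in the slick series. The slick change of -0.38 passed and the source change of -0.15 did not, but the difference of -0.23 did not pass either (interval -0.48 to 0.01). DCN, decorin, a collagen-binding proteoglycan, gave -0.35 and -0.63, and only the slick fall passed.

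**Figure D4:**
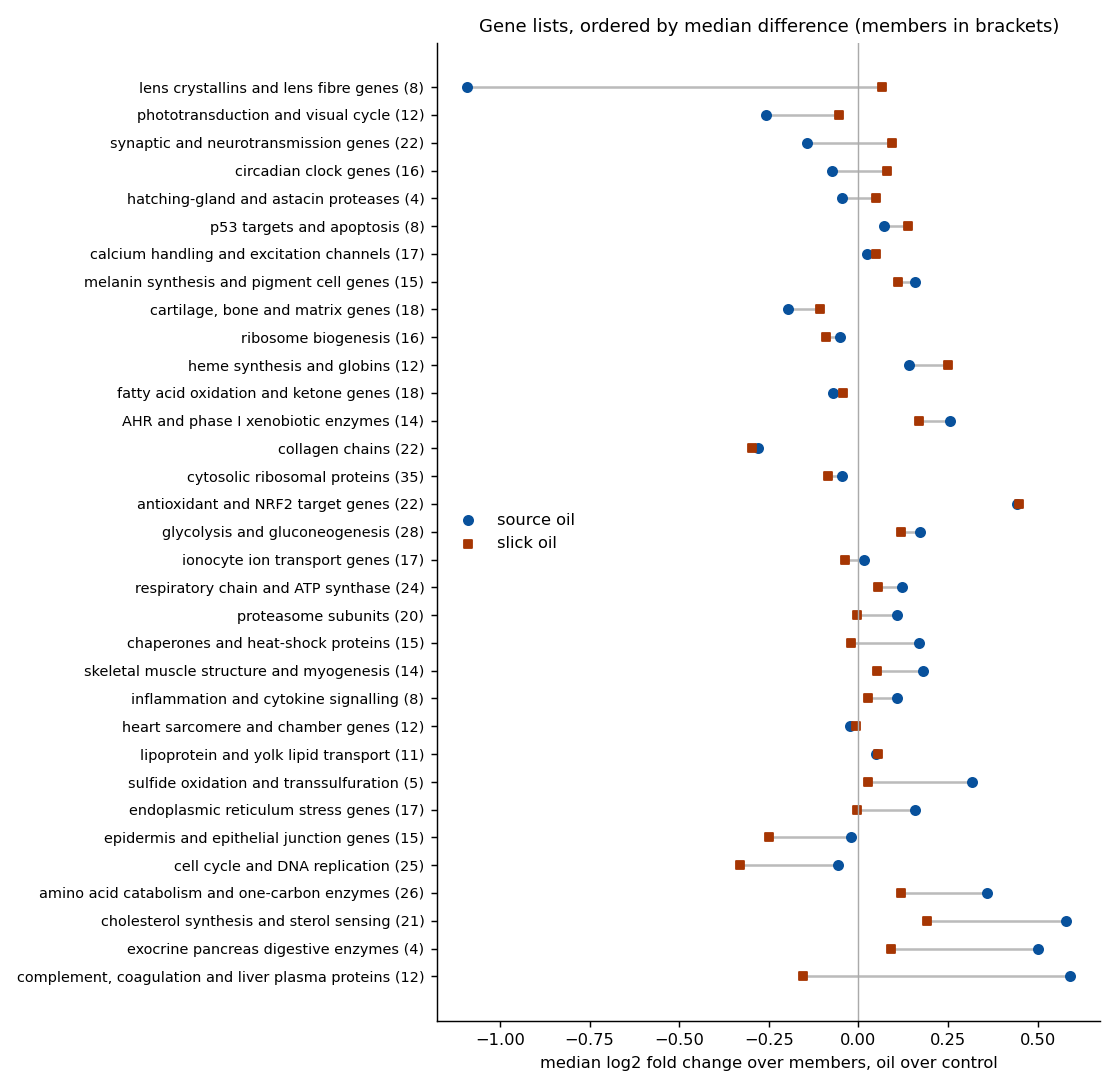
Median log2 fold change over the matched genes of each of 33 lists (rows, number of matched genes in brackets), for source oil (circles) and slick oil (squares) over their own controls. The lens list lies furthest apart at the top, the liver plasma protein list at the bottom, and the antioxidant and collagen lists lie at nearly the same place for both oils.

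Larvae at 72 hpf gave a comparison in libraries that neither the matching nor the 24 hpf test used. There, 3 slick oil libraries were set directly against 3 source oil libraries, at the same dilutions of 2.50% and 0.27%; totals ranged from 2675657 to 2995308 counts. It is a comparison of levels under oil rather than of responses over controls, so that a series difference without oil would enter it. A difference of sequencing run, if there was one, would enter it as well, and this was not tested. Of 8941 symbols tested, 1561 passed (17.5%), and 1206 of 6786 matched genes did. Of those matched genes, 532 were higher and 674 lower under slick oil. Of the 14 genes, 14 were tested, 12 had the same sign as at 24 hpf and 9 passed, each in the same direction. Read against the 17.5% of all symbols, which counts both directions, 9 of 14 is a larger share. The genes were, however, chosen for their difference at 24 hpf. The shares of all matched genes with the same sign at both ages, or without overlap at 72 hpf, are not given here. The sign count and the overlaps described below therefore have no background to be read against.

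Of the 8 matched lens list genes, 6 passed as higher under slick oil at 72 hpf and 0 as lower, with a median difference of 0.36 against 0.003 over all matched genes tested. LIM2 (0.18) and GJA3 (-0.18) did not pass, and their groups overlapped. CRYBA1 was at 561, 692 and 675 CPM with source oil and at 896, 851 and 881 CPM with slick oil, and LGSN was at 9.79, 8.17 and 10.2 CPM against 18.1, 15.3 and 15.2 CPM. Neither gene's groups overlapped. The log2 differences in level were 0.45 ± 0.09 (SE) and 0.79 ± 0.21. The differences of responses over controls at 24 hpf, a different measure, were 1.32 and 1.90. CRYBA2 and CAPN3 passed as well, at 0.36 and 0.43; LGSN missed the threshold in DESeq2 (adjusted p = 0.0524). GPNMB was at 62.6, 61.5 and 59.0 CPM with source oil and at 112, 106 and 118 CPM with slick oil. Its groups did not overlap, and the difference was 0.88 (adjusted p = 1.89e-07). At 24 hpf the mean of slick controls already stood above that of source controls for GPNMB (29.4 against 17.1 CPM) and CRYBA2 (928.5 against 711.9 CPM). It was also above for CRYBA1 and CAPN3, and below for LGSN (9.61 against 11.3 CPM). Reads were assigned to genes differently in the 2 tables that gave these means. Whether such offsets held at 72 hpf was not tested, and could not be here, since the deposited slick and source comparisons at that age share their controls.

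C3, FGB, STAT3 and A2ML1 were lower under slick oil at 72 hpf. STAT3 was at 1086, 1270 and 975 CPM with source oil and 726, 715 and 793 CPM with slick oil. Its groups did not overlap, and its difference was -0.58. FGB was at 446, 492 and 344 CPM against 264, 185 and 309 CPM, again without overlap, with a difference of -0.76. The 24 hpf values of -0.57 for STAT3 and -0.75 for FGB are differences of responses over controls, a different measure. Mean levels under slick and source oil at 24 hpf were 351 and 368 CPM for STAT3, and 681 and 666 CPM for FGB. C3 passed at -0.91 although its groups overlapped, at 113, 101 and 63.0 CPM against 45.2, 32.0 and 70.5 CPM, and DESeq2 did not call it (adjusted p = 0.129). A2ML1 passed at -0.41, and not without the slick oil library that was lowest for it (-0.33, adjusted p = 0.0726). LIPG, UROC1 and AACS kept their sign at -0.21, -0.25 and -0.24 and did not pass. STC1 (-0.32) and DPYD (0.11) had the opposite sign and did not pass; STC1 was at 10.1, 17.0 and 24.1 CPM with slick oil, and without the last of these it passed at -0.65 (adjusted p = 0.0334).

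AHR targets did not pass at 72 hpf. CYP1B1 was at 27.8, 19.9 and 28.4 CPM with source oil and 24.4, 32.0 and 31.5 CPM with slick oil, and AHRR at 90.8, 86.3 and 97.6 CPM against 89.1, 88.6 and 95.7 CPM. Groups overlapped for both, and the log2 differences were 0.21 ± 0.16 and -0.01 ± 0.10. Of the 21 matched sterol genes, 8 passed as lower under slick oil at this age and 0 as higher, with a median difference of -0.43. Over all 6786 matched genes tested, 674 passed as lower and 532 as higher, and the median was 0.003. MSMO1 (-0.84), INSIG1 (-0.54), DHCR7 (-0.36) and HMGCS1 (-0.67), an early enzyme of the mevalonate pathway, were among the 8. One-sided shifts at 72 hpf were not particular to the lens and sterol lists. Of 35 cytosolic ribosomal protein genes, 33 passed as lower and 0 as higher, although their median difference at 24 hpf was -0.05. Of 20 proteasome genes, 13 passed as lower and 0 as higher. Ribosome biogenesis genes went the other way (6 of 16 higher, 0 lower), and calcium handling and channel genes went both ways (7 and 7 of 17).

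**Figure D5:**
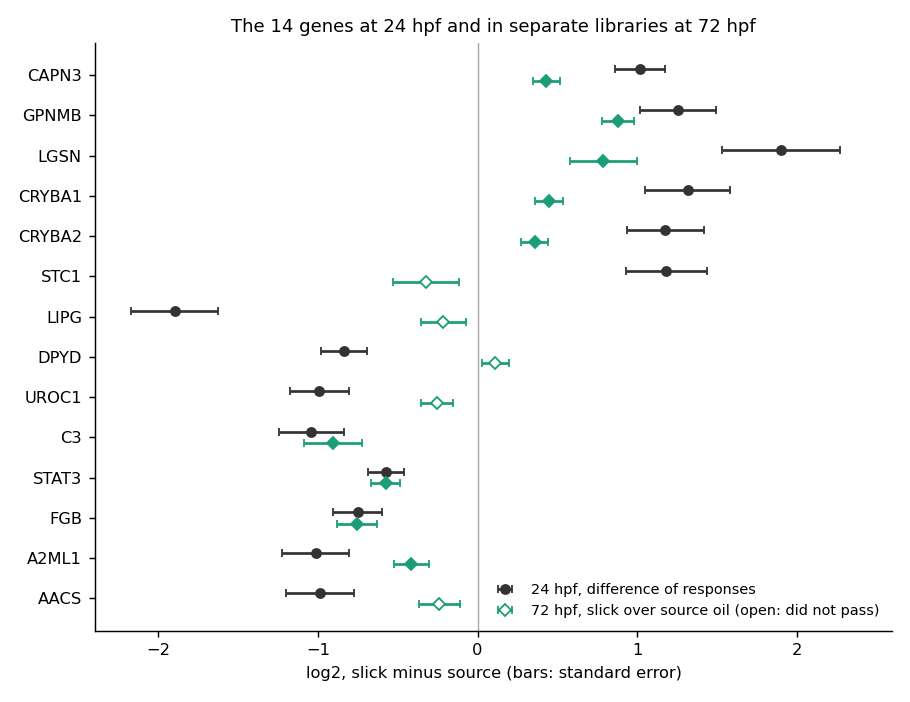
Log2 slick minus source (x axis) for the 14 genes (rows): circles are the difference of responses over controls at 24 hpf, diamonds the direct comparison of oil-exposed larvae at 72 hpf in other libraries, filled where it passed, and bars are standard errors. Diamonds lie on the side of the circles for 12 genes and are filled for 9.

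At the border of the matching rule, the genes just inside were GATB, TMEM170A and KIAA1715, each with a control level 0.5001 times as high in the source series as in the slick series, and differences of -0.70, -0.40 and 0.19. Just outside were CACNA1A, at 0.4999, LTA4H, at 0.4997, and RRAGA, at 2.002 times as high, with differences of 0.13, -0.03 and 0.11. Of the 33 genes set for reporting, 10 fell outside the matched genes: CYP1A1, TIPARP, GCLM, SQLE, LDHA, CRYBB1, PTGS2, HBE1, TNNT2 and PCNA.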

How the data were processed

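RNA of pooled whole embryos and larvae was sequenced from TruSeq libraries, per the labels' protocols, on a HiSeq2500, per the series' design text. The deposited tables hold whole-number read counts per gene symbol; the submitters' processing notes list HTSeq, DESeq2 and hg19 and give no version or role for them. How reads of this fish were given human symbols is not given in the sources used here. Of 37 library columns in 6 tables, 17 were used; 2 control columns of the 24 hpf tables were left out. A further column in the source table repeats the name of source control 1, with a library number next to those of the slick controls; whether it is the slick control 1 that the labels list was not settled. The other, C4-SO in the slick table, matches no 24 hpf title. The slick response therefore rests on 2 controls. Rows repeating a symbol (8 of 56346) were dropped.

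Counts were normalised by TMM within each table and filtered by filterByExpr in each, and 11 libraries were fitted together in edgeR 4.0.16 (R 4.3.3, limma 3.58.1); the difference of responses is the interaction contrast, tested by the quasi-likelihood F test with 24.09 degrees of freedom (7 residual, 17.09 prior). Standard errors come from the information matrix and the moderated dispersion. Each response and the 72 hpf contrast (6 libraries) were fitted within their own libraries. Calls need an adjusted p under 0.05. The procedure was run on simulated counts with the same dispersion for every gene and no response to source oil. That run does not show how it performs with the spread between these libraries. DESeq2 1.42.0 and other settings were alternatives.

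The matched genes, the 33 gene lists and the named genes were chosen with earlier results of these data known. Named were the called genes (up to 10 per direction by p), further called genes of lists with 2 or more, a panel of 33 genes, and 3 genes either side of the matching limit; others are given as chosen after their values were seen or as members of a described list. CPM are counts scaled to the TMM-adjusted library total. Replicate numbers were not shown to pair libraries. Same-numbered libraries' deviations correlated at 0.16, 0.04 and 0.16 in the source series and -0.03 and -0.03 in the slick series. Differently numbered control and oil libraries of the source series correlated at -0.25 to 0.10, so pairing there was not settled. With 2 slick controls the deviations mirror each other, so the slick values cannot decide it. Replicates of each group differed by more than counting noise (chi-square over its degrees of freedom 1.53 to 7.08).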

Additional observations from a re-analysis of the deposited data

Results flagged for a closer look

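For 14 genes the effect of oil differed between the slick and the source series by the test of the difference itself. The log2 difference, slick minus source, was 1.90 for LGSN, 1.32 for CRYBA1, 1.26 for GPNMB, 1.18 for STC1, 1.18 for CRYBA2 and 1.02 for CAPN3. It was -1.90 for LIPG, -1.04 for C3, -1.02 for A2ML1, -0.99 for UROC1, -0.99 for AACS, -0.84 for DPYD, -0.75 for FGB and -0.57 for STAT3. Oil type, dilution, series, the assignment of reads to genes and possibly sequencing run change together between the 2 responses and cannot be told apart.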

How the results depend on the processing

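The 14 genes kept the sign of their difference under each alternative run, which their choice by the same contrast in the same libraries made likely beforehand. TMM over all libraries and median-ratio size factors gave the same 14 genes; source libraries thinned to the slick depth gave 14, of which 12 were shared. The difference of oil responses at 24 hpf moved with DESeq2 (8; 3 higher and 5 lower with slick oil), with separate fits and a normal p (50; 25 and 25), and with control means within a factor of 1.5 (9; 5 lower). Leaving out each library gave 1 to 45 genes, 0 to 20 higher and 0 to 25 lower. For matched genes the source response counted 243 to 416 and the slick response 46 to 396 on leaving out each library, and DESeq2 called 82 in the slick response. At 72 hpf DESeq2 called 744 matched genes. Leaving out each library there gave 806 to 1263, and 8 to 10 of the 14 passed at both ages. LGSN and C3, which passed at 72 hpf in edgeR, did not in DESeq2 (adjusted p = 0.0524 and 0.129). The causes of these changes were not tested. With 2 slick controls and few counts, NQO1 and CYP1B1 had 95% intervals of -2.51 to -0.16 and -1.24 to 1.22.

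With the replicate number as a replicate block, 37 genes passed (18 higher and 19 lower with slick oil; 13 of the 14 among them), and the source oil response at 24 hpf counted 625. The numbers were not shown to pair libraries.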
